A study of Mus musculus with 6 samples.

Results

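TRBV14, TRBV17, TRBV23 and TRBV30 are 4 of the 29 V segments of the mouse T-cell receptor beta chain (TCRB) that were read from sorted splenic T follicular regulatory (Tfr) cells. They were chosen by their low share of templates in these samples, counting every rearrangement whose V segment call starts with one of these names, so their levels are given as a description. They held 224 of 7043 templates, or 3.18%, in 148 of 4238 distinct nucleotide rearrangements. The samples came from 3 mice of the genotype Foxp3GFP, with a superior and an inferior sample from each. What superior and inferior stand for is not explained in the labels, which also give neither the animals' age nor a treatment. All 6 samples share the genotype, in which GFP reports Foxp3, the transcription factor of regulatory T cells. Genomic DNA was amplified with the immunoSEQ mouse TCRB assay at survey resolution, so the counts do not depend on how strongly a receptor is transcribed, and no expression marker could be read to check the sorted cell type. A template is 1 counted copy of a rearrangement here, although the files do not say whether input molecules or reads were counted.

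A TCRB chain is built in the thymus by joining 1 V, 1 D and 1 J segment, with bases trimmed from the segment ends and random bases added between them. The V segment encodes CDR1, CDR2 and the first residues of CDR3, the loop that spans the joins and lies over the peptide in the complex of peptide and MHC. Tfr cells carry Foxp3 and restrain the germinal centre reaction in B-cell follicles, and V segments are known to be used very unequally in mouse T cells.

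All 4 genes lie in the V cluster of the locus on chromosome 6 (mm10; positions from RefSeq for GRCm38.p6) and are annotated there as V segments, not as pseudogenes. Trbv14 spans chr6:41135167-41135616, Trbv17 chr6:41163092-41163556, Trbv23 chr6:41216073-41216526 and Trbv30 chr6:41281376-41281990. They lie 398, 370, 317 and 251 kb from Trbd1, so Trbv30 is the closest of the 4 to the D and J segments.

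The bases that each V segment gave to CDR3 were inferred from the deposited rearrangements, base by base, as the most frequent next base among those still matching. The full ends of TRBV14, TRBV17, TRBV23 and TRBV30 were kept in 26.3%, 11.6%, 14.6% and 13.3% of their rearrangements. Their last bases are thus carried by a minority. The inferred ends are shown because the first CDR3 residues of a receptor come from them, as far as trimming leaves them. Capitals mark the codon after the first cysteine.

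TRBV14: tgtGCCagcagtttc

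TRBV17: tgtGCTagcagtagagat

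TRBV23: tgcTCCagcagtcaatcg

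TRBV30: tgtAGTtctagaga

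These ends have 15, 18, 18 and 14 bases and translate as CASSF, CASSRD, CSSSQS and CSSR, the last 2 bases of TRBV30 being left over. TRBV23 and TRBV30 carry serine where TRBV14 and TRBV17 carry alanine. An end can be longer in the genome than it appears here, since bases trimmed from most rearrangements cannot be inferred.

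The largest rearrangement of each segment is shown whole, as the 87 bases that were read. Capitals mark the junction, the bases between the last base that matches the V end and the first that matches the J segment, which hold the D segment and the added bases. Of equally large rearrangements, the one found in more samples and then the first by sequence was taken.

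TRBV14 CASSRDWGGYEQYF TRBJ2-7: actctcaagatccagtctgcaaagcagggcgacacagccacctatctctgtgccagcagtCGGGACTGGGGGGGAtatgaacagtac

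TRBV17 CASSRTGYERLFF TRBJ1-4: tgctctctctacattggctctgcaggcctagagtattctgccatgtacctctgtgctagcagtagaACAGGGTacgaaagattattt

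TRBV23 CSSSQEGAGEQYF TRBJ2-7: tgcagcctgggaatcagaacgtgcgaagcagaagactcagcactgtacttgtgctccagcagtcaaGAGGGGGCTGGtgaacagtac

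TRBV30 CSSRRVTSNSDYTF TRBJ1-2: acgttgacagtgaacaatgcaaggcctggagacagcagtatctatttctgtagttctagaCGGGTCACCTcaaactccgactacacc

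Their junctions have 15, 7, 11 and 10 bases. Each is preceded by the inferred V bases above, short of 3, 3, 3 and 2 bases of the inferred end, and the TRBV17 clone has the shortest junction of the 4.

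All 4 segments were found in all 6 samples, at mean shares of 1.13% ± 0.399 for TRBV17, 0.932% ± 0.644 for TRBV23, 0.902% ± 0.493 for TRBV14 and 0.326% ± 0.115 for TRBV30 (SD, 6 samples). By mean share they ranked 19, 20, 21 and 22 of 29. TRBV17, TRBV23 and TRBV14 lay closer to each other than the spread of any of them over the samples. TRBV24 and TRBV12-1 were the next above, at 1.43% and 1.89%. TRBV27, annotated as a pseudogene, and TRBV21 were the next below, at 0.184% and 0.175%, and were found in 3 and 4 of the 6 samples. The range over all V segments ran from 0.00898% for TRBV18 to 11.9% for TRBV13-2. TRBV30 was the last segment in this order that was found in every sample, and each segment below it was missing from 1 or more.

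**Figure D1:**
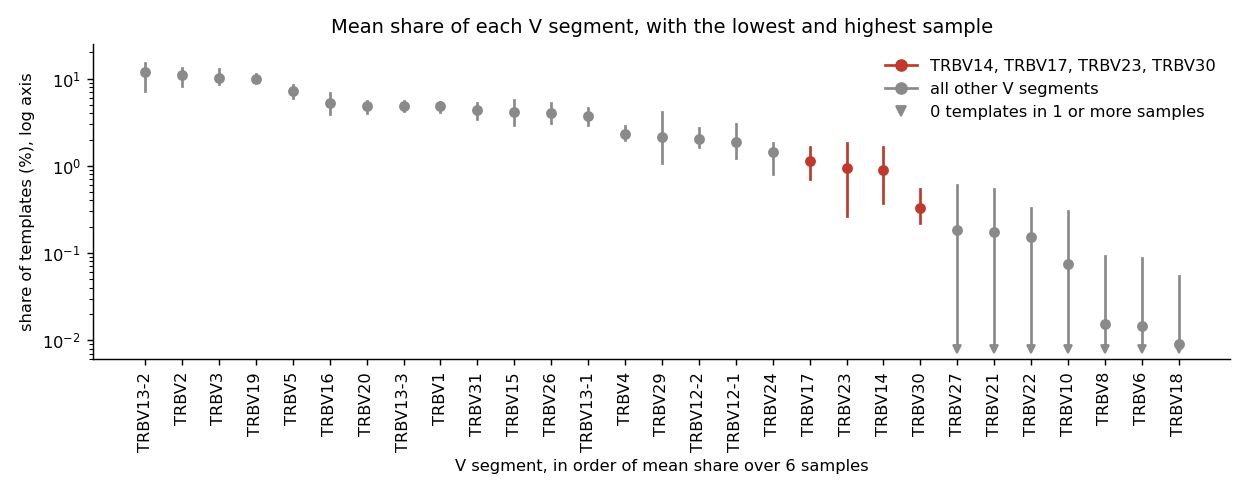
Mean share of templates (%, log axis) of each of the 29 V segments over the 6 samples, in order from highest to lowest. Points are means, lines run from the lowest to the highest sample, and triangles mark segments with 0 templates in 1 or more samples; TRBV17, TRBV23, TRBV14 and TRBV30 (red) are the last segments found in all 6 samples.

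TRBV14 was the only one of the 4 with a higher share in the superior sample of all 3 mice. It had 11, 15 and 8 templates in the superior samples of mice 1, 2 and 3, or 1.65%, 1.37% and 0.704%. The inferior samples had 9, 6 and 7 templates, or 0.657%, 0.652% and 0.377%. The 3 superior shares all lay above the 3 inferior ones, although the 95% Wilson intervals of the 2 samples overlapped in every mouse. Superior samples averaged 1.24% ± 0.485 and inferior samples 0.562% ± 0.160 (SD, n = 3 for both).

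In edgeR's quasi-likelihood fit over 23 V segments, TRBV14 had the highest log2 fold change of superior over inferior, 1.13 (SE 0.43), and this did not pass the threshold (unadjusted p = 0.0198, Benjamini-Hochberg adjusted p = 0.456). No V segment was called (0% of 23), and 1, or 4.35%, had an unadjusted p below 0.05; DESeq2 also called 0 and had 0 at an unadjusted p below 0.05. This fit was one of 7 settings of edgeR's quasi-likelihood method that were run, and it was kept, with its result known, because it gave the values of an earlier analysis of these data. The unadjusted p of TRBV14 ran from 0.0198 to 0.0585 over the 7 settings, so the one given is the lowest of these, and its adjusted p ran from 0.456 to 0.901. None of the 7 used the pairing of samples by animal. An edgeR fit with the mouse number as a replicate block gave TRBV14 an adjusted p of 0.226, which did not pass either. When each distinct rearrangement was counted once, the log2 value was 0.73, and with each V, CDR3 and J combination counted once it was 0.66.

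TRBV17 had the same template counts as TRBV14 in the superior samples, 11, 15 and 8 in mice 1, 2 and 3, from different rearrangements. Its inferior samples had 10, 13 and 17 templates, or 0.730%, 1.41% and 0.916%. The groups overlapped, and the superior share was higher in 1 of 3 mice. Superior samples averaged 1.24% ± 0.485 and inferior samples 1.02% ± 0.353 (SD, n = 3 for both), a log2 fold change of 0.28 (SE 0.40, edgeR adjusted p = 0.852). Without mouse 1 the sign turned, to -0.09.

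TRBV23 varied most of the 4 between samples. It had 4, 17 and 3 templates in the superior samples of mice 1, 2 and 3, or 0.600%, 1.55% and 0.264%. Its inferior samples had 5, 9 and 34 templates, or 0.365%, 0.978% and 1.83%. In mouse 3 the 95% Wilson intervals of the superior sample, 0.0898% to 0.774%, and of the inferior sample, 1.31% to 2.55%, did not overlap, and this comparison of 2 libraries covers counting error only. In mice 1 and 2 the superior share was the higher one, with overlapping intervals. Superior samples averaged 0.805% ± 0.668 and inferior samples 1.06% ± 0.737 (SD, n = 3 for both), a log2 fold change of -0.44 (SE 0.60, edgeR adjusted p = 0.852). Without mouse 3 the value was 0.92.

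TRBV30 was the rarest of the 4, with 2, 3 and 4 templates in the superior samples of mice 1, 2 and 3 and 3, 5 and 5 in the inferior samples. These counts are shares of 0.300%, 0.274% and 0.352% in superior samples and 0.219%, 0.543% and 0.270% in inferior samples. Superior samples averaged 0.309% ± 0.0398 and inferior samples 0.344% ± 0.175 (SD, n = 3 for both), and the groups overlapped. The log2 fold change was -0.02 (SE 0.58, edgeR adjusted p = 0.982), and at 22 templates in all a difference of the size of its SE would not be detectable.

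**Figure D2:**
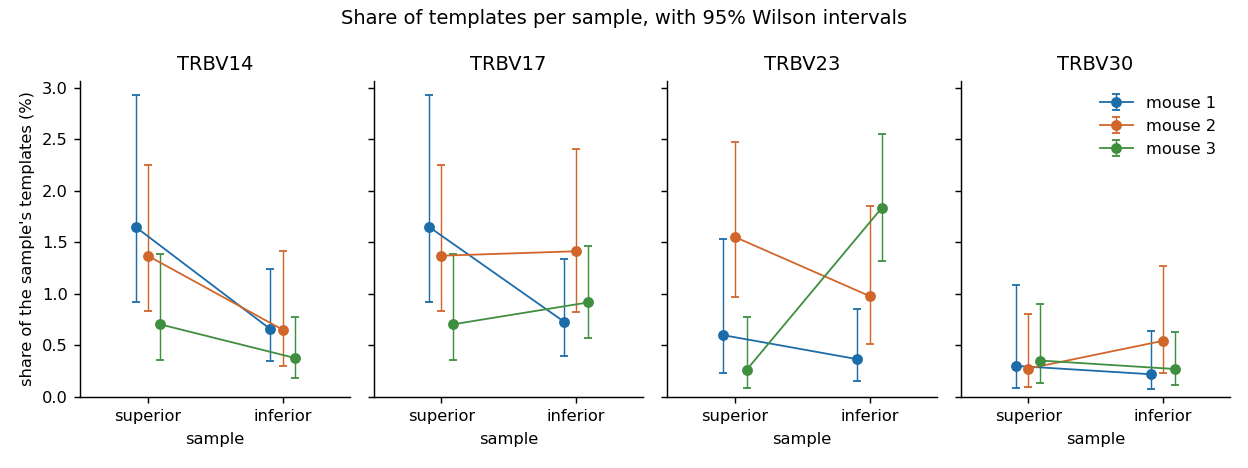
Share of the sample's templates (%) for TRBV14, TRBV17, TRBV23 and TRBV30 in superior (left) and inferior (right) samples, with lines joining the samples of a mouse and bars for 95% Wilson intervals. TRBV14 falls to the right in all 3 mice, and TRBV23 reaches 1.83% in the inferior sample of mouse 3, against 0.264% in its superior sample.

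Together the 4 segments held 4.20%, 4.57% and 2.02% of templates in the superior samples of mice 1, 2 and 3 and 1.97%, 3.59% and 3.396% in the inferior samples. The superior sample had the higher sum in 2 of 3 mice, and the groups overlapped. The V segments whose share over the 6 samples ran most like TRBV14 were TRBV19 (Spearman's rho 0.89) and TRBV31 (0.54), each of 22 segments compared. For TRBV17 they were TRBV12-2 and TRBV23 (both 0.43), for TRBV23 they were TRBV1 (0.71) and TRBV2 (0.54), and for TRBV30 they were TRBV12-1 (0.71) and TRBV12-2 (0.49). These values describe 6 points that come in pairs from 3 mice, and shares within a sample sum to a fixed total.

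Each segment was spread over many small clones. TRBV14 had 38 distinct rearrangements, TRBV17 45, TRBV23 49 and TRBV30 16. Single-template rearrangements were 26 of 38 for TRBV14 (68.4%), 30 of 45 for TRBV17 (66.7%), 36 of 49 for TRBV23 (73.5%) and 12 of 16 for TRBV30 (75.0%). With CDR3 bases merged, these were 23 of 35, 26 of 42, 27 of 44 and 12 of 16 in this order. That is 65.7%, 61.9%, 61.4% and 75.0%. Some entries had a near copy in the same sample, with the same CDR3 bases or 1 mismatch there. This held for 13.95%, 21.3%, 24% and 11.8% of entries, against 21.9% for all other V segments. Whether near copies are 1 clone was not tested. Averaged over mice, the single-template share of TRBV23 was 71.6% ± 4.69, against 64.0% ± 2.47 for all other V segments (SD, n = 3 mice). The fitted difference, 10.4 points (SE 6.25), weights each mouse by the segment's rearrangements, so it is not the difference of these means. It did not pass the test (limma adjusted p = 0.376). Neither did those of TRBV14 (4.04 points, SE 7.10), TRBV17 (2.88, SE 6.52) and TRBV30 (11.2, SE 10.9). Of 22 V segments tested, 18.2% were called for this feature. With CDR3 bases merged, the differences of TRBV14, TRBV17, TRBV23 and TRBV30 were 8.32, 4.94, 5.06 and 18.04 points, and none passed. Templates per rearrangement were 1.53, 1.67, 1.47 and 1.43 for TRBV14, TRBV17, TRBV23 and TRBV30, against 1.66 for all other V segments in each comparison, and 4.55% of the 22 segments were called, none of them one of the 4.

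Over all samples pooled, no single clone carried a segment. Within single samples the largest clone held 18.2% to 33.3% of TRBV14 templates (20% to 42.9% with CDR3 bases merged) and 23.1% to 40% of TRBV17 templates. For TRBV23 it held 11.8% to 50%, at 1 to 4 templates, and for TRBV30 25% to 60%, at 1 to 3 templates. The largest TRBV17 clone, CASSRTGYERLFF with TRBJ1-4, had 4 superior and 3 inferior templates, both in mouse 2, and its 7 templates were 9.46% of all TRBV17 templates. The next were 3 clones of 4 templates, a clone of 15 residues with TRBJ2-5 in the superior sample of mouse 2, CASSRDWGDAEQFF with TRBJ2-1 in the inferior sample of mouse 1 and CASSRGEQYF with TRBJ2-7 in the inferior sample of mouse 3.

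The 2 largest TRBV14 clones had 4 templates each, 7.14% of the segment, and both were in both samples of mouse 2. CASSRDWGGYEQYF with TRBJ2-7 had 2 superior and 2 inferior templates, and the other one, of 15 residues and also with TRBJ2-7, had 3 superior and 1 inferior template. The 2 largest TRBV23 clones, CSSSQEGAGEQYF and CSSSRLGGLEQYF, both with TRBJ2-7, had 4 templates each, 5.56% of the segment, all in the inferior sample of mouse 3. Among the TRBV23 clones of 3 templates, the one found in both samples, of 15 residues with TRBJ2-3, had 1 superior and 2 inferior templates in mouse 1.

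The 34 TRBV23 templates of the inferior sample of mouse 3 were spread over 22 rearrangements, 16 of them with 1 template (20 and 13 with CDR3 bases merged). Its largest clone held 11.8% of them, and without that clone the share was 1.62%. The high TRBV23 share of that sample thus came from many rearrangements. With the largest clone of each sample left out, TRBV14 averaged 0.991% ± 0.420 over superior samples and 0.405% ± 0.123 over inferior samples (SD, n = 3 for both). The superior sample was above the inferior one in 3 of 3 mice. This step took 18.2%, 20% and 25% of the superior and 22.2%, 33.3% and 28.6% of the inferior TRBV14 templates in mice 1, 2 and 3. It lowers the inferior samples more, so it cannot show that the difference is free of clones.

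For TRBV30 a single clone weighed more, since the counts were so low. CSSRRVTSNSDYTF with TRBJ1-2 had 1 superior and 2 inferior templates in mouse 2, and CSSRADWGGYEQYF with TRBJ2-7 had 3 in that inferior sample. These 2 clones were all 5 TRBV30 templates of the inferior sample of mouse 2, the sample with the highest TRBV30 share. Without the largest clone of each sample, TRBV30 averaged 0.199% ± 0.0588 over superior samples and 0.175% ± 0.0375 over inferior samples (SD, n = 3 for both).

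**Figure D3:**
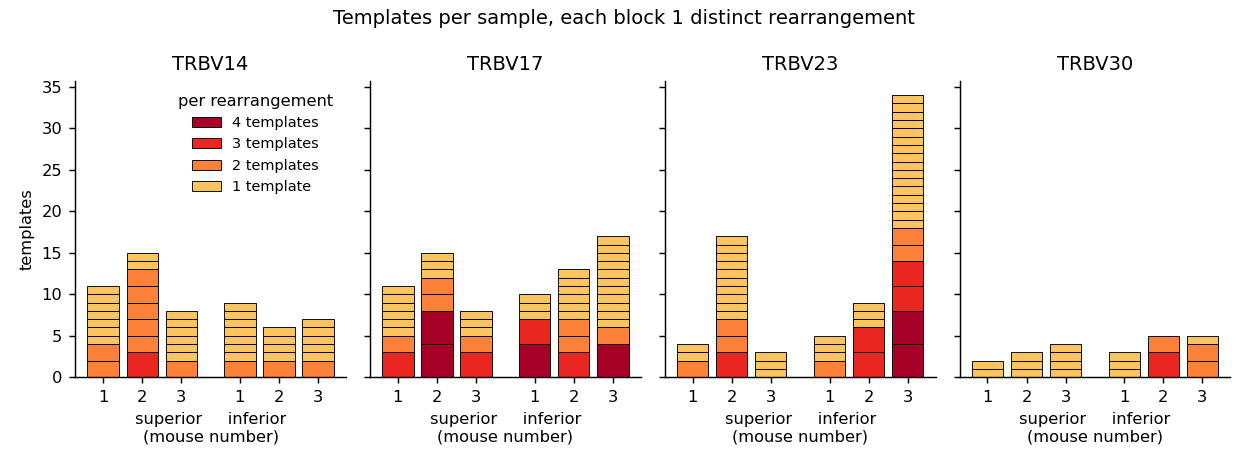
Templates of TRBV14, TRBV17, TRBV23 and TRBV30 in each sample, superior samples of mice 1 to 3 on the left and inferior samples on the right of each panel. Each block is 1 distinct rearrangement, coloured by its templates; no block exceeds 4 templates, and the tallest bar, TRBV23 in the inferior sample of mouse 3, is made of 22 blocks.

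Sharing between the samples of a mouse was seen for all 4 segments. Of the TRBV14 rearrangements, 5 of 38 (13.2%) were in both samples of their mouse, 1 in mouse 1, 3 in mouse 2 and 1 in mouse 3. The counts were 2 of 45 for TRBV17 (4.44%), 1 of 49 for TRBV23 (2.04%) and 1 of 16 for TRBV30 (6.25%), against 153 of 4099 for all other V segments (3.73%). The shared TRBV14 clones beyond the 2 largest were joined to TRBJ2-2, TRBJ2-1 and TRBJ1-2 and had 3, 3 and 2 templates, and the second shared TRBV17 clone was joined to TRBJ2-1 and had 2. Averaged over mice, the TRBV14 share was 14.9% ± 13.2, against 3.76% ± 0.844 for all other V segments (SD, n = 3 mice), and it was higher in 3 of 3 mice. TRBV14 had the highest mean of the 22 segments tested. The fitted difference, with mice weighted by rearrangements, was 9.53 points (SE 4.58) and did not pass (limma adjusted p = 0.696). In all, 0% of the segments were called (1 had an unadjusted p below 0.05). The TRBV14 difference was 3.88 points without mouse 2 and 14.1 without mouse 1. For TRBV17, TRBV23 and TRBV30 the differences were 0.55 points (SE 2.74), -2.03 (SE 3.25) and 2.49 (SE 5.65).

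No receptor of the 4 segments was found in 2 mice. Compared by V and J segment and the residues of CDR3, 0 of 35 TRBV14, 0 of 41 TRBV17, 0 of 44 TRBV23 and 0 of 16 TRBV30 clonotypes were in 2 or more mice, against 30 of 3615 (0.830%) of all other V segments. Counts of 0 allow shares of up to 8.57%, 7.32%, 6.82% and 18.8%, so a share like that of the other segments was not detectable at this depth. The same CDR3 and J segment under another V segment occurred for 5 of 35 TRBV14 clonotypes (14.3%), against 137 of 3615 (3.79%) of all other V segments, a difference that was not tested. An example was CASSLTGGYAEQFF with TRBJ2-1, which was also found once with TRBV3. For TRBV17 there were 0 of 41 clonotypes found under another V segment, with the same limit as above. The counts were 0 of 44 for TRBV23 and 0 of 16 for TRBV30. Their CDR3 started with CSS in 48 of 48 and 14 of 15 rearrangements, against 0 of 4062 outside the 4 segments. A match outside the 4 was thus nearly impossible for TRBV23 and TRBV30, and their 0 counts say little about sharing.

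The first CDR3 residues were often those of the inferred V ends. These ends were read from the most frequent bases of the same rearrangements, so this match was built in and is no check of them. CDR3 started with CSS in 48 of 48 TRBV23 and 14 of 15 TRBV30 rearrangements, against 0 of 4062 of all other V segments outside the 4. Arginine at position 5, which the TRBV17 end encodes, was in 27 of 43 TRBV17 rearrangements (62.8%), against 7.53% of those of all other V segments. Glutamine at position 5 was in 27 of 48 TRBV23 rearrangements (56.2%), against 13.6%. Arginine at position 4 was in 10 of 15 TRBV30 rearrangements (66.7%), against 7.46%. Phenylalanine at position 5 was in 11 of 38 TRBV14 rearrangements (28.9%), against 2.22%, and leucine was as frequent there in TRBV14 (28.9%), against 21.1%. Apart from this leucine, these residues are encoded by the inferred V ends, although single rearrangements can carry them from junction bases. They were read after the values were seen, so the counts are given without a test. The full inferred V end was kept in 10 of 38 TRBV14, 5 of 43 TRBV17, 7 of 48 TRBV23 and 2 of 15 TRBV30 rearrangements.

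CDR3 had a median of 14 residues for TRBV14, TRBV17 and TRBV23 and 13 for TRBV30, against 14 for all other V segments. TRBV30 means were 13.2, 12.5 and 13.0 residues in mice 1, 2 and 3, against 13.8, 13.8 and 13.8 for all other V segments. Its CDR3 was shorter by 0.86 residues (SE 0.35, limma adjusted p = 0.0424), with 3 of 3 mice in that direction, and 40.9% of the 22 V segments tested were called in either direction. This SE came from a variance pooled over the 22 segments and scaled by the number of rearrangements. The spread of TRBV30 itself over its 3 mice (SD 0.361 residues) did not set it. The call rests on 15 rearrangements, and it was lost when rearrangements were weighted by templates (-0.59, adjusted p = 0.113), with 6 samples and the mouse as a replicate block (-0.82, adjusted p = 0.0578), and without mouse 2 (-0.70, adjusted p = 0.277) or mouse 3 (-0.90, adjusted p = 0.140). It was kept with CDR3 bases merged (-0.88, adjusted p = 0.0269), with unweighted mice (-0.90, adjusted p = 3.4e-08) and without mouse 1 (-0.995, adjusted p = 0.0297). In the unweighted fit TRBV14, TRBV17, TRBV23 and TRBV30 all had the same pooled SE, 0.118. That very low p-value therefore does not measure the spread of TRBV30 over mice. The inferred V end of TRBV30 is also the shortest of the 4, and its part in the difference was not tested. For TRBV14, TRBV17 and TRBV23 the differences were 0.21 (SE 0.23), -0.22 (SE 0.21) and -0.27 residues (SE 0.20), and none passed. Single TRBV23 rearrangements ran from 9 to 17 residues, TRBV17 from 10 to 17, TRBV14 from 12 to 16 and TRBV30 from 10 to 14, and the SD over rearrangements was highest for TRBV17, at 1.94 residues.

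TRBV14 had a longer mean junction than the pool of all other V segments, but not the longest of the 22 segments tested. Averaged over mice it had 11.08 bases and TRBV24 had 11.12. TRBV24 was also called, with a difference of 1.74 bases (SE 0.35, limma adjusted p = 0.00779). TRBV4 was called as longer too (1.19 bases, SE 0.34), and TRBV3 as shorter (-0.48 bases, SE 0.15). The junction averaged 11.3, 11.5 and 10.4 bases in mice 1, 2 and 3 for TRBV14, against 9.38, 9.45 and 9.31 bases for all other V segments. The difference was 1.70 bases (SE 0.50, limma adjusted p = 0.0400), in the same direction in 3 of 3 mice, and 18.2% of the 22 segments tested were called. The call was lost when rearrangements were weighted by templates (2.20 bases, adjusted p = 0.0629) or merged by CDR3 bases (1.53, adjusted p = 0.0841), and without mouse 1, 2 or 3 (1.54, 1.58 and 1.98 bases, adjusted p = 0.189, 0.291 and 0.106). It was kept with 6 samples and the mouse as a replicate block (2.02 bases, adjusted p = 0.00461) and with unweighted mice (1.70, adjusted p = 0.0134). Junction length was defined after the data were seen and counts from the inferred V end, which for TRBV14 has 15 bases, so V bases not inferred there would count as junction. CDR3 length, which needs no inference, did not differ for TRBV14 beyond its error (0.21 residues, SE 0.23, adjusted p = 0.517). The junction differences of TRBV17, TRBV23 and TRBV30 were -0.40 (SE 0.45), -0.71 (SE 0.45) and 0.37 bases (SE 0.83), and none passed.

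**Figure D4:**
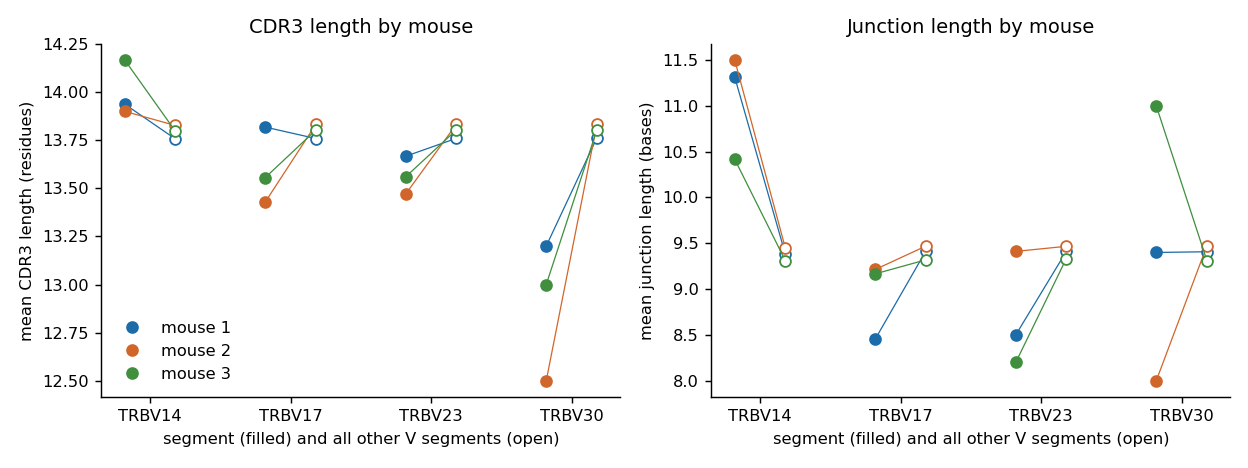
Mean CDR3 length (residues, left panel) and mean junction length (bases, right panel) per mouse for TRBV14, TRBV17, TRBV23 and TRBV30 (filled points), joined to the value of all other V segments in the same mouse (open points). The axes do not start at 0. TRBV30 CDR3 lies below, and the TRBV14 junction above, the pooled value of the other V segments in 3 of 3 mice.

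These 2 calls were the only ones among 36 tests, 9 features for each of the 4 segments. Benjamini-Hochberg adjustment was made over the 22 V segments within a feature, not over the features.

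The J segments joined to the 4 V segments were mostly of the TRBJ2 cluster, as in all other V segments. TRBJ2 segments were joined in 30 of 38 TRBV14 rearrangements (78.9%), 35 of 45 TRBV17 (77.8%), 38 of 49 TRBV23 (77.6%) and 9 of 16 TRBV30 (56.2%), against 67.6% of all other V segments. Averaged over mice the TRBJ2 share was 81.2% ± 16.5 for TRBV14, 78.1% ± 5.01 for TRBV17, 75.3% ± 8.35 for TRBV23 and 57.6% ± 19.7 for TRBV30, against 67.9% ± 1.10, 67.9% ± 1.13, 67.9% ± 1.15 and 68.0% ± 1.07 for all other V segments (SD, n = 3 mice). The first 3 had the highest means of the 22 segments tested and TRBV30 the lowest. The fitted differences, with mice weighted by rearrangements, were 11.0 (SE 7.96), 10.004 (SE 7.32), 10.1 (SE 7.01) and -11.6 points (SE 12.3). None passed the test (limma adjusted p = 0.357, 0.357, 0.357 and 0.512), and 4.55% of the segments were called. Single mice moved these differences. In mouse 1 the TRBJ2 share of TRBV14 was 68.75%, against 68.77% for all other V segments, and the TRBV14 difference was 3.56 points without mouse 2 and 18.96 without mouse 1. The TRBV30 difference was -2.01 points without mouse 3 and -22.01 without mouse 1.

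TRBJ2-7 was the J segment joined most often to TRBV14, with 9 rearrangements, and to TRBV17, with 12. TRBV14 was next joined to TRBJ2-2, with 7, and then to TRBJ2-1, TRBJ2-3 and TRBJ2-5, with 4 each. TRBV17 was next joined to TRBJ2-5, with 11, and TRBJ2-4, with 5. TRBV23 was joined to TRBJ2-5 and TRBJ2-7 in 10 rearrangements each and to TRBJ2-4 in 8. TRBV30 was joined most often to TRBJ1-2, in 5 of 16 rearrangements, against 215 or 5.25% of all other V segments, and then to TRBJ2-5 in 4. Among these 5, a pair in the superior sample of mouse 3, each of 1 template, differ by 1 base in CDR3. Whether the pair is 1 clone was not tested, and counted once it would leave TRBJ1-2 level with TRBJ2-5. TRBV30 was seen with 6 of the 14 listed J segments, where TRBV14, TRBV17 and TRBV23 were seen with 10, 9 and 10, and an absent J segment allows a share of up to 18.8% of TRBV30 rearrangements. The TRBJ2-7 share was called for 0% of the 22 segments (5 had an unadjusted p below 0.05).

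**Figure D5:**
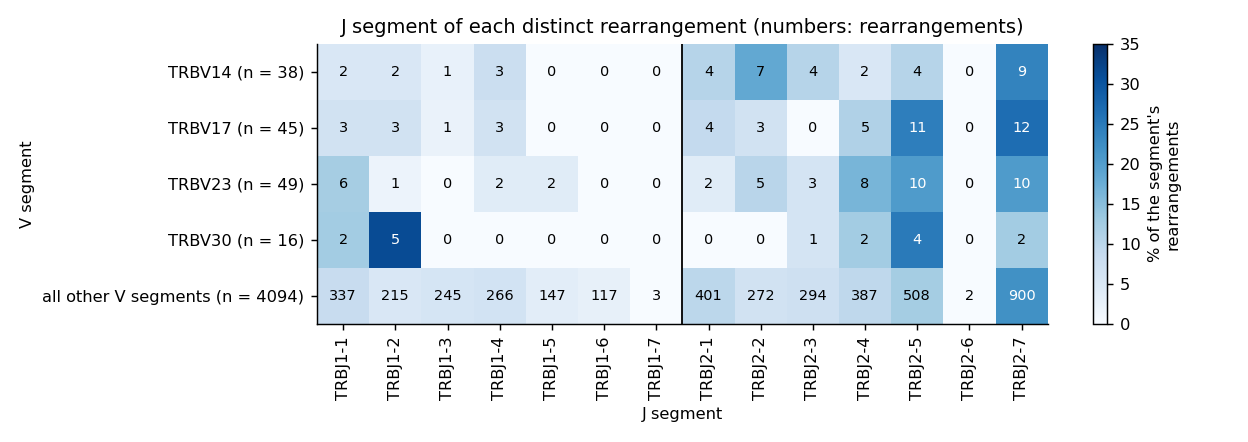
J segments of the distinct rearrangements of TRBV14, TRBV17, TRBV23, TRBV30 and all other V segments. Colour gives the percent of the segment's rearrangements, numbers give rearrangements, and the line parts the TRBJ1 from the TRBJ2 cluster. TRBV30 with TRBJ1-2 is the darkest cell, from 5 rearrangements, a pair of which differ by 1 base in CDR3.

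TRBD2 was called in 20 of the TRBV14, 21 of the TRBV17, 18 of the TRBV23 and 5 of the TRBV30 rearrangements, and TRBD1 in 15, 15, 21 and 7. TRBD2 was thus 57.1%, 58.3%, 46.2% and 41.7% of resolved calls, against 44.4% for all other V segments, and 0% of the 22 segments were called for this share (4 had an unadjusted p below 0.05). TRBD2 with a TRBJ1 segment was called in 2 TRBV14, 1 TRBV17, 1 TRBV23 and 0 TRBV30 rearrangements, against 80 of all other V segments, 7.87% of their resolved TRBJ1 joins. TRBD2 lies beyond the TRBJ1 cluster in the locus, and a D segment is read from few bases, so single D calls are uncertain.

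Hydrophobic residues (F, I, L, M, V or W) at CDR3 position 6 or 7, which lie toward the peptide, were in 9 TRBV14, 13 TRBV17, 11 TRBV23 and 5 TRBV30 rearrangements, or 23.7%, 30.2%, 22.9% and 33.3%, against 25.7% of all other V segments. No segment was called for the mean over mice (0% of 22; 3 had an unadjusted p below 0.05).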

How the data were processed

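Productive TCRB rearrangements of 6 samples of genomic DNA were analysed. The authors deposited a whole-number count for each rearrangement, and a productive frequency, which is that count as a fraction of the sample's total. The build was mm10, per the submitters' processing notes, and neither an aligner nor a clonotype caller is given in the sources used here. Totals were 667, 1095 and 1136 templates in superior samples 1 to 3 and 1370, 920 and 1855 in inferior samples 1 to 3. Wilson 95% intervals and limits of 3 counts for a count of 0 cover counting error only.

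Usage was tested with edgeR 4.0.16 (R 4.3.3) on templates per V segment of 10 or more templates, with a common dispersion, no abundance trend and the sample total as library size. The first run used edgeR's abundance trend. Further settings were then tried and the present one was kept because it gave the values of an earlier analysis, with its results known. DESeq2 1.42.0 was an alternative. Features were tested with limma 3.58.1 over 22 V segments with 12 or more rearrangements, 2 or more in every mouse, as the segment minus all other V segments per mouse, weighted by rearrangements. The fit moved each variance toward one pooled over these segments, so a segment's own spread over mice can count little. Adjusted p-values are Benjamini-Hochberg, at 0.05. The V end was extended while the top next base was carried by 50% or more of the combinations still matching. It stopped where fewer than 20% of all combinations matched. CDR3 features left out entries whose CDR3 did not start with cysteine. Both fits were run on simulated data. The simulated limma data had no variation between mice beyond that set by the number of rearrangements, so they cannot check the pooled variance. Figures used matplotlib 3.10.9.

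The 4 segments, the lists and the tests were chosen with earlier results of these data known, and junction length, the hydrophobic residues and the residue counts were defined after the files were seen. Other V segments were named as the 2 next above or below in share, the 2 most alike or the ends of a range. For junction length, the other segments called were named as well. Clones named were the 3 largest of a segment and those in both samples of a mouse, with exceptions among equal sizes, and the TRBV14 clonotypes shared with another V segment are counted with 1 example. J segments were the 3 most frequent, with ties.

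The mouse number pairs the samples, since both come from 1 animal by the labels. Deviations from the group means correlated at 0.079, -0.253 and -0.291 in mice 1, 2 and 3 on log2 shares and at 0.069, 0.677 and -0.350 on percent shares. The percent scale was computed first.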

Additional observations from a re-analysis of the deposited data

How the results depend on the processing

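Of 196 alternative values of 24 values of single segments, 170 kept their direction and side of the threshold, 17 turned their sign and 9 lost their call. Only 2 of the 24 values had a call to lose, TRBV30 CDR3 length and TRBV14 junction length, with 7 alternatives each. All 9 losses were among these, so the 170 says little about how firm the 2 calls are. All 17 that turned were values that had passed no test. The cause was not tested for any of these changes. In the usage fit no V segment was called under any alternative, DESeq2, TMM, no filter, the 6 further edgeR settings (chosen after seeing the data) and single mice left out included, and 0 to 2 segments had an unadjusted p below 0.05 over the 7 edgeR settings. With the mouse number as a replicate block, which follows the pairing of samples by animal, 0 were called, and the log2 values were 1.10, 0.21, -0.57 and -0.11 for TRBV14, TRBV17, TRBV23 and TRBV30. TRBV14 kept its sign throughout, from 0.66 to 1.16. Counting each distinct rearrangement once gave -0.029 for TRBV17 and 0.55 for TRBV30, and counting each V, CDR3 and J combination once -0.0078 and 0.53. Leaving out single mice gave -0.093 to 0.54 for TRBV17, -1.55 to 0.92 for TRBV23 and -0.29 to 0.41 for TRBV30. Among the features, the number of V segments called for CDR3 length was 9, against 4 when weighted by templates and 5 to 8 without single mice. For junction length it was 4, against 1 when weighted by templates, 0 with merged CDR3 bases, 2 with unweighted mice and 0 to 1 without single mice. For the TRBJ2 share it was 1, against 0 under each of these 3 settings and 0 to 1 without single mice. For the TRBJ2-7 share it was 0, against 1 with 6 samples and the mouse as a replicate block and 0 to 1 without single mice. For hydrophobic residues it was 0, against 1 when merged, 1 unweighted and 0 to 2 without single mice. For templates per rearrangement it was 1, against 3 when merged, 6 with 6 samples and 0 to 1 without single mice. For the single-template share it was 4, against 1 when merged, 2 unweighted and 0 to 3 without single mice. Weighting by templates was not run for the last 2 features. The junction difference of TRBV30 ran from -0.66 to 0.98 bases without single mice, and that of TRBV14 from 1.54 to 1.98. The single-template differences of TRBV14 and TRBV17 ran from -4.002 to 14.01 and from -5.81 to 6.996 points. The difference in the share found in both samples turned for TRBV17 when weighted (-0.12 points), with 6 samples (-1.78) and without single mice (-1.19 to 3.38), for TRBV23 when unweighted (1.68), and for TRBV30 when weighted (-1.05) and without single mice (-3.41 to 7.28). Over all samples pooled, the largest clone of each segment held the same part of it when CDR3 bases were merged. That size was then reached by 3 rather than 2 clonotypes, for TRBV14 and for TRBV23. In the inferior sample of mouse 3 the largest TRBV17 clone, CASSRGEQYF, then had 5 templates rather than 4. At 22 to 74 templates per segment, depth limits every value given here.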
